A study of Homo sapiens with 3 samples.

Results

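SR proteins and heterogeneous nuclear ribonucleoproteins (hnRNPs) were followed in HEK293 cells, a line derived from human embryonic kidney, after depletion of the miRNA-processing enzymes DICER1 and DROSHA. Members were the rows of the deposited gene table whose symbol is SRSF with a number, TRA2A or TRA2B, or begins with HNRNP. This symbol rule found 36 of 12040 genes: 12 SRSF rows, 2 TRA2 rows and 22 HNRNP rows. Of these, 33 are protein genes. The other 3 are the pseudogene HNRNPA1P10, HNRNPU-AS1, which is antisense by its symbol, and HNRNPUL2-BSCL2, a readthrough from HNRNPUL2 into its neighbour. Reads of overlapping or near-identical genes cannot be told apart in these data, so the values of these 3 rows, of HNRNPU and HNRNPUL2, which they overlap, and of HNRNPA1 and its copy HNRNPA1L2 are uncertain. HNRNPDL and HNRNPLL stand in the table under the older symbols HNRPDL and HNRPLL and lie outside the rule.

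The 3 poly(A) RNA libraries came from cells depleted of DICER1, cells depleted of DROSHA and mock-transfected cells, 1 library per group. All cells, the mock included, carried the strain label HEK293 T-Rex FLAG:DICER1 FLP-IN, that is, a FLAG-tagged DICER1 transgene in a line with an inducible expression system. Whether the transgene was induced, and the RNA interference reagents, are not given in the sources used here. All titles bear the label 2.5d. The authors' deposited table gives 2 log2 fold changes per gene over the same denominator library, each computed after 1 was added to both levels. Its columns have no names, so the fold changes are called comparison A and comparison B, as they follow in the rows. Neither could be matched to a knockdown by name. DICER1 was at -1.32 in comparison A and 0.58 in comparison B, and DROSHA at -0.11 and -1.65 (authors' deposited table). In bulk RNA of a culture, fewer cells with a transcript and less of it per cell cannot be told apart. There is no replicate error, no test and no p-value, and the sequencing depth is unknown. "Rose" and "fell" mean only that a log2 fold change reached 0.5 in size, a 1.41-fold difference.

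SR proteins carry RNA recognition motifs and a domain rich in arginine and serine. They bind exonic enhancers and recruit the spliceosome, and several also escort mRNA out of the nucleus. hnRNPs coat nascent transcripts, and many bind silencer elements and oppose SR proteins at the same exons. Genes of both families limit their own output through alternative exons that send the transcript to nonsense-mediated decay. Members of both families also touch miRNA synthesis: SRSF1 and HNRNPA1 bind certain primary miRNAs and promote their cleavage by DROSHA, and HNRNPA2B1 recruits the DROSHA partner DGCR8 to methylated ones.

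The members lay lower in comparison B than in comparison A. In comparison B 30 of 36 members were below 0 (83.3%), against 48.9% of all genes. The median of the members there was -0.19 and their middle values ran from -0.30 to -0.07 (quartiles), whereas the median of all genes was 0.01. In comparison A 23 of 36 were below 0 (63.9%), against 43.4% of all genes, with a median of -0.02 for the members and 0.03 for all genes. The larger share of members below 0 in comparison A did not hold after adjustment for GC content and transcript length, as given below. Of the 36 members, 31 lay within 0.2 of 0 in comparison A, as did 68.7% of all genes. The members were named by symbol and the lists were drawn up with earlier results known, so these shares are descriptions.

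**Figure D1:**
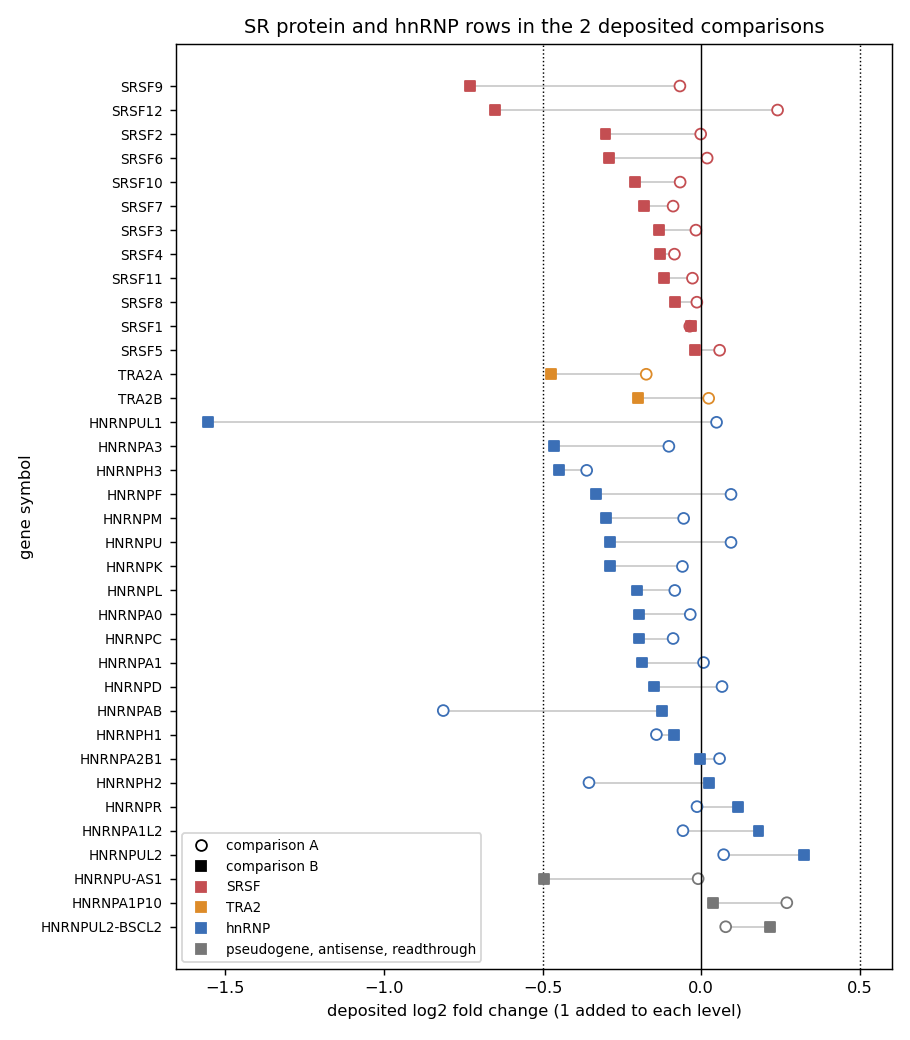
Deposited log2 fold change (horizontal axis) of each of the 36 members (vertical axis) in comparison A (open circles) and comparison B (filled squares), with a grey line joining the values of a gene. Dotted lines mark 0.5 and -0.5. All 12 SRSF squares lie left of 0, and HNRNPUL1 at -1.55 stands apart from the other members.

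Calls were few in both directions. In comparison A 1 of 36 members fell (2.04% of all genes fell) and 0 rose (1.46% of all genes). In comparison B 3 of 36 fell (5.59% of all genes) and 0 rose (2.33% of all genes). The member that fell in comparison A was HNRNPAB, and those that fell in comparison B were HNRNPUL1, SRSF9 and SRSF12. Nearest to a call in comparison B stood HNRNPU-AS1, TRA2A, HNRNPA3 and HNRNPH3, which reached 0.4 but not 0.5 below 0. The share of all genes in that band was not computed. HNRNPUL1 was the single member beyond a log2 fold change of 1 in either direction.

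**Figure D2:**
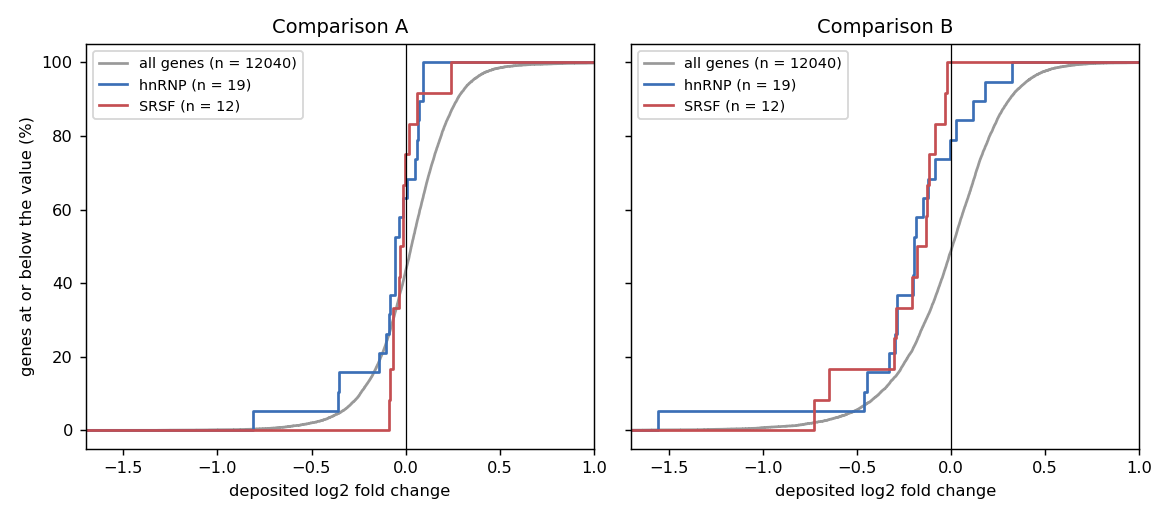
Percentage of genes at or below each deposited log2 fold change (vertical axis, %) against the fold change (horizontal axis, log2) for all 12040 genes, the 12 SRSF genes and the 19 hnRNP protein genes; values beyond the axis ends are not drawn. In comparison B the SRSF curve reaches 100% before 0, while the curve for all genes passes 0 at 48.9%.

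Among the SR proteins, 12 of 12 were below 0 in comparison B, with a median of -0.16 and a range from -0.73 to -0.02. In comparison A 9 of 12 were below 0, with a median of -0.02. SRSF9, a small SR protein closely related to SRSF1, stood at -0.07 in comparison A and -0.73 in comparison B (authors' deposited table). In comparison B its level, after the added 1, was thus 60.3% of the denominator. SRSF1 itself, the founding member of the family, was at -0.04 and -0.03 (authors' deposited table). The near relatives therefore differed in comparison B, while both were near 0 in comparison A. SRSF12, a relative of SRSF10, was at 0.24 and -0.65 (authors' deposited table), which makes it the highest SRSF gene of comparison A and the second lowest of comparison B. SRSF10, which acts as a splicing repressor when dephosphorylated, was at -0.07 and -0.21 (authors' deposited table).

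The other 8 SR proteins neither rose nor fell. SRSF2, a marker of nuclear speckles, was at -0.0017 in comparison A and -0.30 in comparison B (authors' deposited table). SRSF8, a close copy of SRSF2, was at -0.01 and -0.08 (authors' deposited table). SRSF3 and SRSF7, which serve as adaptors for mRNA export, stood at -0.02 and -0.09 in comparison A and at -0.13 and -0.18 in comparison B (authors' deposited table). The related proteins SRSF4, SRSF5 and SRSF6 spread from -0.08 to 0.06 in comparison A and from -0.29 (SRSF6) to -0.02 (SRSF5) in comparison B (authors' deposited table). SRSF11 completed the family at -0.03 and -0.12 (authors' deposited table). TRA2A and TRA2B, SR-like activators that bind GA-rich exonic enhancers, were at -0.17 and 0.02 in comparison A (authors' deposited table). In comparison B TRA2A stood at -0.47 and TRA2B at -0.20 (authors' deposited table), so both paralogues were below 0 and TRA2A was the lower.

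HNRNPUL1 had the lowest value of all members. It encodes an hnRNP U-like protein that binds RNA and an adenoviral oncoprotein and takes part in the response to DNA breaks. It stood at 0.05 in comparison A and at -1.55 in comparison B (authors' deposited table). This was rank 16 from the lowest of 12040 genes in comparison B, and 34.0% of the denominator level after the added 1. Its relatives did not share this value. HNRNPUL2 was the highest member of comparison B, at 0.07 and 0.32 (authors' deposited table), and the readthrough row HNRNPUL2-BSCL2, which shares its exons, was at 0.08 and 0.22. HNRNPU, which binds RNA and nuclear scaffold DNA, was at 0.09 and -0.29 (authors' deposited table). The row HNRNPU-AS1, antisense by its symbol, was at -0.01 and -0.495 (authors' deposited table). The build of RefSeq used here lists that symbol as a synonym of HNRNPU, so whether it is a separate gene is uncertain. The 3 proteins of this subfamily thus spanned the whole range of the members in comparison B while lying between 0.05 and 0.09 in comparison A.

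HNRNPAB was the member that fell in comparison A. It encodes a protein of the A/B type that binds RNA and CArG-box DNA. Its values were -0.81 and -0.12 (authors' deposited table), rank 40 from the lowest of 12040 genes in comparison A, and 56.9% of the denominator level after the added 1. The other A/B and D genes lay from -0.10 (HNRNPA3) to 0.07 (HNRNPD) in comparison A (authors' deposited table). HNRNPA1, which binds exonic silencers, was at 0.01 and -0.19 (authors' deposited table), and HNRNPA2B1 at 0.06 and -0.0050. HNRNPA3, a relative of HNRNPA2B1, was the lowest of this subfamily in comparison B, at -0.46 (authors' deposited table). HNRNPD (AUF1), which binds AU-rich elements of unstable mRNAs, was at -0.15 and HNRNPA0 at -0.20 in comparison B (authors' deposited table). The copies of HNRNPA1 went the other way from it in comparison B: HNRNPA1L2 was at 0.18 and the pseudogene HNRNPA1P10 at 0.04 (authors' deposited table). HNRNPA1P10 was also the highest member of comparison A, at 0.27 (authors' deposited table).

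The F/H proteins, which bind runs of G, were the subfamily with the lowest median in comparison A, -0.25 over 4 genes. HNRNPH3 was at -0.36 and -0.45, and HNRNPH2 at -0.35 and 0.02 (authors' deposited table). HNRNPF showed the reverse order of HNRNPH2, at 0.09 and -0.33, and HNRNPH1 was at -0.14 and -0.09 (authors' deposited table). HNRNPH3 was therefore the lowest F/H gene in both comparisons, which share their denominator library. HNRNPH1 was also below 0 in both. The remaining hnRNPs bind distinct sequences: HNRNPC U tracts, HNRNPK C-rich stretches, HNRNPL CA repeats and HNRNPM GU-rich stretches. In comparison A these 4 lay between -0.09 and -0.06 (authors' deposited table). In comparison B they lay between -0.30 (HNRNPM) and -0.20 (HNRNPC) (authors' deposited table). HNRNPR was at -0.01 and 0.12 (authors' deposited table), which made it 1 of the 6 members above 0 in comparison B.

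Comparison A minus comparison B sets the numerator libraries against each other, because the shared denominator cancels. It was below 0 in 8 of 36 members (22.2%), against 46.6% of all genes, and its median was 0.13 for the members and 0.02 for all genes. It was at least 0.5 in 3 members (8.6% of all genes) and at most -0.5 in 1 member (4.82% of all genes). The 3 were HNRNPUL1 with a difference of 1.60, SRSF12 with 0.89 and SRSF9 with 0.66, and the 1 was HNRNPAB with -0.69. Next to them stood HNRNPU-AS1 at 0.49, HNRNPF at 0.43 and HNRNPU at 0.38 on the high side. On the low side, HNRNPH2 differed by -0.38, HNRNPUL2 by -0.25, HNRNPA1L2 by -0.24, HNRNPUL2-BSCL2 by -0.14 and HNRNPR by -0.13. The shares of members past 0.5 were near those of all genes in this difference, so the members differed from all genes in the side of 0 more than in the number of large values.

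Certain 7-base words in 3' UTRs had earlier been found to mark the lowest genes of each comparison: CAATCTA and AATCTAA in A, GTGACTT and TGACTTA in B. The words were picked from these fold changes, members included, so their presence supports nothing by itself. They were searched on the transcript strand of 1 GENCODE 29 coding transcript per gene (build GRCh38), and the words of a pair overlap by 6 bases. A word of the second pair was present in 12 of 33 members with a 3' UTR (36.4%) and in 20.7% of 11122 genes. A word of the first pair was present in 6 of 33 members (18.2%) and in 14.3% of genes. Most members with a word did not fall in the comparison of that word. The windows below show the word in capitals. HNRNPUL1, SRSF12 and HNRNPAB fell, and HNRNPUL2 and SRSF4 are examples that carry the same words and did not.
HNRNPUL1: gggaggaagcaGTGACTTttttttggtaa
SRSF12: ttgtatactttGTGACTTAcattatgaaaa
HNRNPUL2: tagtttcatttGTGACTTtaccaataccc
HNRNPAB: taccttttgggAATCTAAtgtattgtaag
SRSF4: tataattgttaAATCTAAgtgcttcctct

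All 5 windows lie in an annotated 3' UTR of GRCh38. They are at chr19:41307074-41307102 on the plus strand (HNRNPUL1), chr6:89097244-89097273 on the minus strand (SRSF12) and chr11:62713935-62713963 on the minus strand (HNRNPUL2). HNRNPAB has its window at chr5:178211052-178211080 on the plus strand and SRSF4 at chr1:29148258-29148286 on the minus strand. In SRSF12 the words GTGACTT and TGACTTA overlap in 1 stretch, and its 3' UTR also holds AATCTAA, although it was above 0 in comparison A. The HNRNPUL1 word lies in only 2 of 9 basic coding transcripts of that gene, while the HNRNPAB word lies in 7 of 7; which of them these cells use was not measured. SRSF9, the second lowest member of comparison B, carries neither word of the second pair in its 3' UTR of 351 bases.

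Carriers and other members had similar medians. In comparison B the median was -0.20 over the 12 members with a word of the second pair and -0.18 over the 21 without, and 11 of 12 and 18 of 21 were below 0. Over all genes the medians were -0.05 with a word and 0.02 without, in part by the way the words were picked. In comparison A the medians were -0.02 over the 6 members with a word of the first pair and -0.04 over the 27 without. Over all genes the medians of comparison A were -0.10 with a word and 0.05 without, again in part by the way the words were picked. The 3' UTRs of carriers were longer, with a median of 1778 bases against 778 among the members of comparison B. The part of these words in the values was not tested.

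Fold changes of all genes varied with base composition. Across 11356 matched genes, which are not independent replicates, Spearman's rho with transcript GC content was 0.39 in comparison A and -0.28 in B. The 33 matched members had a median GC content of 43.9%, against 48.7% for all matched genes. Genes of low GC content stood higher in comparison B as a whole, whereas the members stood lower. After adjustment for GC content and transcript length the median of the members was -0.24 in comparison B and 0.02 in A, so the sign of the small median of comparison A turned. With adjusted values 13 of 33 members were below 0 in comparison A, beside 4802 of 11356 genes. In comparison B 30 of 33 members were below 0, beside 5494 of 11356 genes. Within the 33 members rho with GC content was -0.11 and 0.07, a description over genes from the same 3 libraries.

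**Figure D3:**
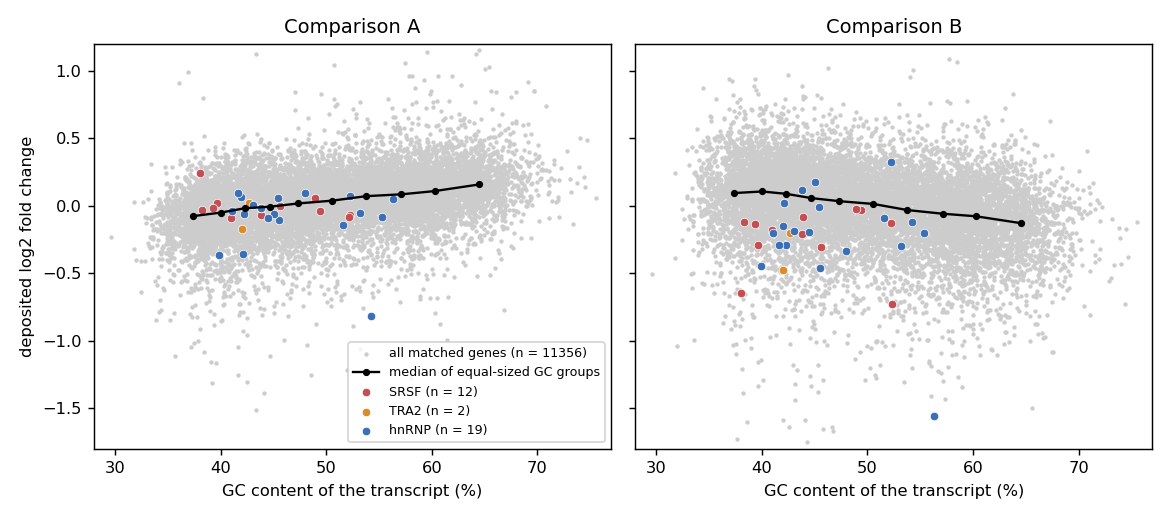
Deposited log2 fold change (vertical axis) against the GC content of the transcript (horizontal axis, %) for 11356 matched genes (grey) and 33 members (coloured); the black line joins the medians of equal-sized groups of genes ordered by GC content, and values beyond the axis ends are not drawn. In comparison B most members lie below the black line at their GC content.

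Other genes of splicing were taken from 6 lists written from textbook knowledge. Family members under other symbols resembled the members in comparison B, with 10 of 14 below 0 and a median of -0.13, but not in A, with 5 of 14 below 0 and a median of 0.08. Of this list PTBP1, a repressor that binds pyrimidine tracts, fell in comparison B, at -0.25 and -0.60 (authors' deposited table). Its neuronal paralogue PTBP2, whose mRNA PTBP1 represses, rose in both, at 0.99 and 0.94 (authors' deposited table). HNRPDL was at 0.11 and -0.07 and HNRPLL at -0.31 and -0.12 (authors' deposited table).

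The remaining lists were centred near all genes in comparison B. The 14 kinases, phosphatases and related enzymes that act on SR proteins had medians of 0.07 and 0.06, and CLK2, a kinase of SR proteins, rose in comparison B, at 0.26 and 0.56 (authors' deposited table). The other ends of this list were TOP1 at -0.19 and DYRK1B at 0.32 in comparison A and PRPF4B at -0.16 in comparison B (authors' deposited table). The 11 genes of nuclear transport and arginine methylation had medians of 0.04 and 0.01 with none risen or fallen. PRMT3 was the lowest of them in comparison A at -0.31 (authors' deposited table). PRMT1, which methylates hnRNPs, was the lowest of them in comparison B at -0.47, and CARM1 the highest in both at 0.46 and 0.16 (authors' deposited table). The 28 SR-related, U1 and U2AF, and exon junction genes had medians of -0.01 and -0.01. CASC3, a subunit of the exon junction complex, and U2AF1, which reads the 3' splice site, fell in comparison B at -1.04 and -0.57, and U2AF1L4 rose in comparison A at 0.58 (authors' deposited table). The opposite ends of this list were ZRANB2 at -0.40 in comparison A and RSRC1 at 0.26 in comparison B (authors' deposited table).

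For the 30 core snRNP and SF3 genes the medians were 0.03 and 0.04. SNRPA1, a protein of the U2 snRNP, fell in comparison A at -0.82, and PHF5A, a subunit of SF3B, fell in comparison B at -0.51 (authors' deposited table). The highest of them were SF3A2 at 0.30 in comparison A and SF3B14 at 0.25 in comparison B (authors' deposited table). The 15 genes of nonsense-mediated decay, which degrades the self-limiting isoforms of SR protein and hnRNP genes, had medians of 0.06 and -0.07. UPF1, the central helicase, was at 0.25 and -0.10 (authors' deposited table). SMG6 was the highest in comparison A at 0.33, while comparison B ran from SMG9 at -0.38 to GSPT2 at 0.23 (authors' deposited table). Medians of these 5 lists ran from -0.07 to 0.06 in comparison B, against -0.19 for the members. The difference between lists was not tested, and the values come from single libraries.

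**Figure D4:**
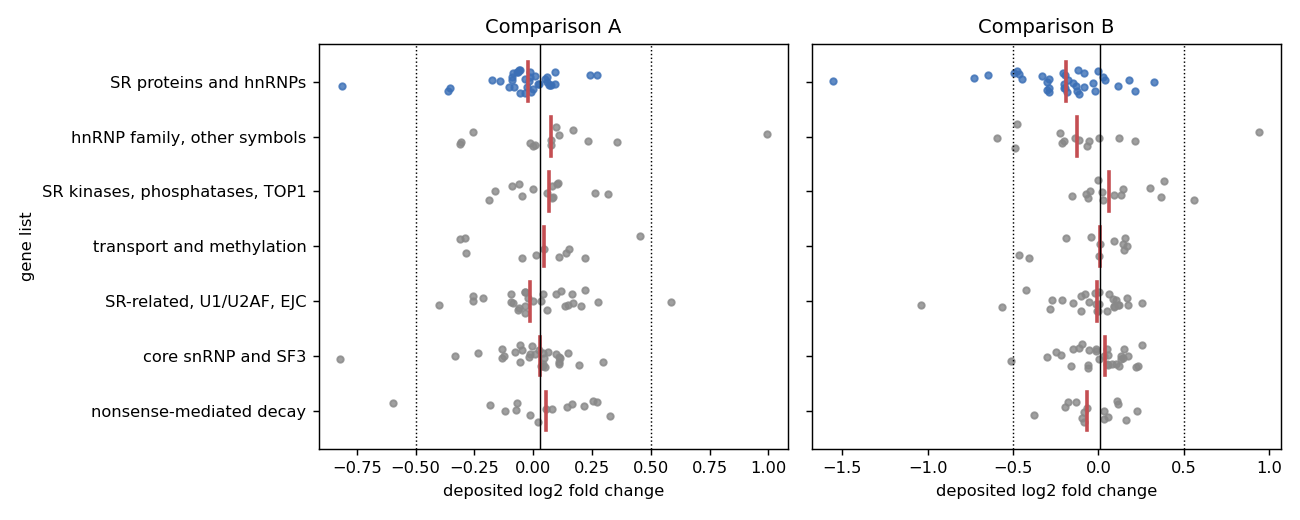
Deposited log2 fold change (horizontal axes) of the genes of each list (vertical axis) in comparisons A and B; each point is a gene, red bars are list medians, the solid line is the median of all 12040 genes and dotted lines mark 0.5 and -0.5. In comparison B the red bar of SR proteins and hnRNPs lies at -0.19 and those of the 6 lists between -0.13 and 0.06.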

How the data were processed

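Poly(A) RNA was sequenced from 3 HEK293 libraries, 1 in each of 3 groups. Build hg19 and the tools TopHat2 2.06, Cuffdiff 2.1.1, Cufflinks, SAMtools and CASAVA 1.8.2 appear in the submitters' processing notes, with no role for each. The deposited table, 1 for the series, has no header line. Its log2 fold changes were made by the authors before they were deposited, as log2 ratios of levels over a shared denominator after 1 was added, which a test on the values found to hold with a largest deviation of 5e-12. They are called comparisons A and B in the order of the table. The added 1 shrinks fold changes of genes with low levels. The table also holds 3 unnamed columns of levels, which match no sample's labels and served only for that test, so no level is reported and depth is unknown.

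Members were found by symbol, and every one was eligible to be named. Detail was given for the 6 highest and 6 lowest members of each comparison and of the difference and for members past 0.5; in each list the ends and every gene past 0.5 were named, except for a result that is not reported here. UPF1, HNRPDL and HNRPLL were named after their values were seen. Members and lists were chosen with earlier results of these data known. Lists are described by counts and medians beside all 12040 genes. Sequences, length and GC content came from GENCODE 29 (GRCh38), with 1 coding transcript per symbol. It was the best by APPRIS rank, where a principal transcript came first if there was one, then the longest by coding and total length. Synonyms were resolved with RefSeq (GRCh38.p14). A 3' UTR of at least 50 bases was required for words and miRNA sites, and mature miRNAs came from RefSeq (GRCh38.p14). Adjustment was by least squares on GC content and log2 transcript length with squared terms, and was tested on simulated data. Python 3.11.15, pandas 2.3.3, NumPy 2.4.6 and Matplotlib 3.10.9 were used. Protein sequences were not used here. No source used here says whether counting used strand.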

Additional observations from a re-analysis of the deposited data

How the results depend on the processing

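Counts of members moved with the size that counts as a call. With a log2 fold change of 1, members that fell numbered 0 in comparison A and 1 in comparison B (0.166% and 0.748% of all genes), and members past it in the difference numbered 1 above and 0 below (1.31% and 0.349% of all genes). With 0.3, 3 of 36 fell and 0 rose in comparison A (6.66% and 7.97% of all genes), and 9 of 36 fell and 1 rose in comparison B (14.4% and 10.7% of all genes). The difference then held 10 above and 2 below (19.6% and 14% of all genes). Adjustment for GC content and transcript length, which left 33 members, moved their medians to -0.24 in comparison B and 0.27 in the difference. Over all matched genes the adjusted medians were 0.01 and 0.02. Adjustment also put 5 members among those that fell in comparison B, but the share of all genes that fell after it was not computed. The cause was not tested. An alternative chosen after the data were seen left out the 15 members that carry any of the 4 words. Then 0 fell in comparison A and 1 in comparison B, and the difference held 1 above and 0 below. HNRNPAB, HNRNPUL1 and SRSF12 are carriers and were thus left out. The words were picked from these fold changes, members included, so the lower counts follow in part from how the words were picked. The part of the words in these counts was not tested. The shares over all genes without a word were not computed. Re-centring on the median of all genes, the mean, the rows of protein genes alone, and the addition of HNRPDL and HNRPLL (also chosen after the data were seen) kept medians within 0.05 and counts within 1.5 times. HNRNPUL1, SRSF9, SRSF12 and HNRNPAB kept their calls under re-centring and adjustment. Other constants in place of the added 1 and a filter on low levels were planned but not run: the level columns carry no sample name and were not used here beyond the test of the ratios. No paired analysis was possible because each group has 1 library. Without replicates or depth, no value has an error.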

Other observations

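Sites for miRNAs abundant in many human cell lines were counted in the 3' UTRs of members as a description of a feature that the symbol rule did not use. A site is the 7-base complement of the seed, bases 2 to 8, read on the transcript strand; the miRNAs shown are those whose sites were most frequent among the members, with the seed in capitals.
hsa-miR-17-5p: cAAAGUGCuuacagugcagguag
hsa-miR-19b-3p: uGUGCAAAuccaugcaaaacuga

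Sites of hsa-miR-19b-3p (TTTGCAC) were present in 10 of 33 members (30.3%) and in 14.9% of 11122 genes. The 10 were HNRNPA0, HNRNPA1, HNRNPA1L2, HNRNPA2B1, HNRNPD, HNRNPF, HNRNPU, HNRNPUL1, HNRNPUL2 and SRSF6. The median of the members was 0.05 with a site and -0.07 without in comparison A, and -0.19 and -0.20 in B. Over all genes the medians were 0.02 with a site and 0.03 without in comparison A, and 0.07 and 0.00026 in B. Sites of hsa-miR-17-5p (GCACTTT) were present in 6 of 33 members (18.2%) and in 23.5% of genes. The median of the members was -0.01 with that site and -0.06 without in comparison A, and -0.25 and -0.19 in B. Over all genes the medians were 0.01 with it and 0.03 without in comparison A, and 0.06 and -0.01 in B. Sites of the other 4 miRNAs searched were present in 3.0% of members and 11.7% of genes for hsa-miR-92a-3p (1 member), 3.0% and 13.1% for hsa-miR-10a-5p (1 member), 9.1% and 23.8% for hsa-miR-16-5p (3 members) and 6.1% and 10.2% for hsa-let-7a-5p (2 members). The levels of these miRNAs were not measured here, and single libraries give no error for any of these medians.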
